A study of Mus musculus with 2 samples.

Results

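The genes of catecholamine synthesis, storage, uptake and breakdown were examined in Neuro2a cells after knockdown of CPEB1. The 9 genes Th, Ddc, Dbh, Gch1, Qdpr, Slc18a1, Slc18a2, Slc6a2 and Maoa were chosen by name from the pathway, of 18193 genes with a probe set of their own on the array. Every probe set annotated to only 1 of these symbols was taken, which gave 20 probe sets. Neuro2a is a mouse neuroblastoma line and therefore a tumor model of the sympathetic lineage rather than a mature neuron. The siControl cells received a control siRNA and the siCPEB1 cells a Stealth siRNA against the coding region of Cpeb1 mRNA, both for 24 h, and each condition was measured on 1 Affymetrix Mouse Genome 430 2.0 array. With 1 array per condition there is no replicate and no test, and each ratio describes these 2 arrays. Knockdown of FMR1, alone or with CPEB1, was not analysed here.

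Catecholamines are made from tyrosine. Tyrosine hydroxylase (Th), which limits the rate of the pathway, makes L-DOPA with tetrahydrobiopterin as cofactor, aromatic L-amino acid decarboxylase (Ddc) turns L-DOPA into dopamine, and dopamine beta-hydroxylase (Dbh), inside the vesicle, turns dopamine into noradrenaline. The vesicular transporters VMAT1 (Slc18a1) and VMAT2 (Slc18a2) load the amines, the noradrenaline transporter (Slc6a2) takes them back up, and monoamine oxidase A (Maoa) on the outer mitochondrial membrane degrades them. Sympathetic neurons and chromaffin cells are known for expressing these genes together.

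In siCPEB1 the members changed in different directions. Ddc was 2.38-fold higher, Dbh was 2.03-fold higher at its representing probe set, and Slc18a2 was 2.16-fold lower. The cofactor genes Gch1 and Qdpr and the uptake transporter Slc6a2 stayed within 2-fold, and Th and Maoa were too dim on both arrays for a ratio to be read. The increase of Dbh lay at the 2-fold limit and was just below it with every other scaling tried.

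The sequence around the transcription start is shown for the 3 members past 2-fold and for Th, the entry of the pathway. The stretches run from 250 bases before to 10 bases after the start annotated by RefSeq on GRCm38.p6. Capitals mark TGACG or its reverse complement CGTCA, the core of the cAMP response element, whose full palindrome is TGACGTCA. The Th stretch (chr7:142899986-142900245, minus strand), the Slc18a2 stretch (chr19:59260628-59260887, plus strand), the Dbh stretch (chr2:27165257-27165516, plus strand) and the stretches of the separate starts of Ddc (chr11:11898135-11898394, minus strand, and chr11:11890399-11890658, minus strand) read:
Th: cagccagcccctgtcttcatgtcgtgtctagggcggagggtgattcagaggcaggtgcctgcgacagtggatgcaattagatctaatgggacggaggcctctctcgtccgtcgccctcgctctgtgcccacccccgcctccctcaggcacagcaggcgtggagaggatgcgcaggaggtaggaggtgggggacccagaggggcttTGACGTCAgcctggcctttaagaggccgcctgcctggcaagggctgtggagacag
Slc18a2: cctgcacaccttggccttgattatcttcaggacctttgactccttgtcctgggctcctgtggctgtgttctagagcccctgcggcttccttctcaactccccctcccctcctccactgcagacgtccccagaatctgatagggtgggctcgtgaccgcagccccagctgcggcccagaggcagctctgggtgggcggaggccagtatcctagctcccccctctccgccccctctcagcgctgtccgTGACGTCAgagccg
Dbh: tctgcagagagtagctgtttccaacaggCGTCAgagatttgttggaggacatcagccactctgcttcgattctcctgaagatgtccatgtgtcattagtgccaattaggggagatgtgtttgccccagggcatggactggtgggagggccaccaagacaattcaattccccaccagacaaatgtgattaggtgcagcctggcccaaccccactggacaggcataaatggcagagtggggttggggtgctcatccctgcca
Ddc, upstream start: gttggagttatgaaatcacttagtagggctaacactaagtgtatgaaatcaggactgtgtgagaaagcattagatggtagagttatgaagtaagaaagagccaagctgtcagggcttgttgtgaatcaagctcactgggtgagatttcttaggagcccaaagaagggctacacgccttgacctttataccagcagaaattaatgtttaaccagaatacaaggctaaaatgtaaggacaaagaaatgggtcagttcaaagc
Ddc, downstream start: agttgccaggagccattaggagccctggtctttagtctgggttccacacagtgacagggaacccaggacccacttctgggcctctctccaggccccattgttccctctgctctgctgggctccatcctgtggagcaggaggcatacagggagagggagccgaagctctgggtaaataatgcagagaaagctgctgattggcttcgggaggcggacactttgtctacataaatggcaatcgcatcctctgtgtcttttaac

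The full palindrome begins 45 bases before the start of Th and 4 bases before that of Slc18a2, where it spans the start itself. Among all 32851 RefSeq windows of 300 bases (250 before and 50 after a start, searched on both strands) 1.79% hold it. The shorter core, which is contained in the palindrome, was in 5 of 8 windows of members, those of Th, Slc18a2, Dbh, Gch1 and Maoa, against 20.8% of all windows. Neither Ddc window held it. Of the genes with the palindrome, Slc18a2 was lower in siCPEB1 and Th was below the array medians. The motifs were chosen after the values were seen, so these counts are a description and not a test. A match describes the letters only, and binding was not measured. Slc18a1 and Slc6a2 were not searched.

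The signals are MAS5 intensities on a linear scale. Over all 45037 probe sets the array median was 21.0 in siControl and 21.5 in siCPEB1, so the arrays differ by 0.04 on the log2 scale as a whole. A probe set was counted when it was at or above the array median on at least 1 array and the 25th percentile on the other (5.06 in siControl and 5.61 in siCPEB1). Probe sets of the same gene differed in log2 ratio with a pooled SD of 0.37. This is the only spread at hand, and it measures disagreement between probe sets on the same arrays. The spread between cultures was not measured. Cpeb1, the targeted gene, went from 302 to 38.5, a log2 ratio of -2.97. In RNA from a whole culture, fewer cells that express a gene and less RNA per cell cannot be told apart.

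Of the 20 probe sets, 10 passed the filter on signal, and at gene level 7 of the 9 genes did. Among those that passed, 2 probe sets were higher by more than 2-fold and 1 was lower. Across the array, 4.5% of 23686 passing probe sets were higher and 4.05% were lower. Counted as genes with 1 probe set each, 2 members were higher and 1 was lower, against 4.99% and 3.46% of 11562 genes. The median log2 ratio over the 9 genes was 0.01, near the 0.06 of all 18193 genes, and the members lay on both sides of 0.

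**Figure D1:**
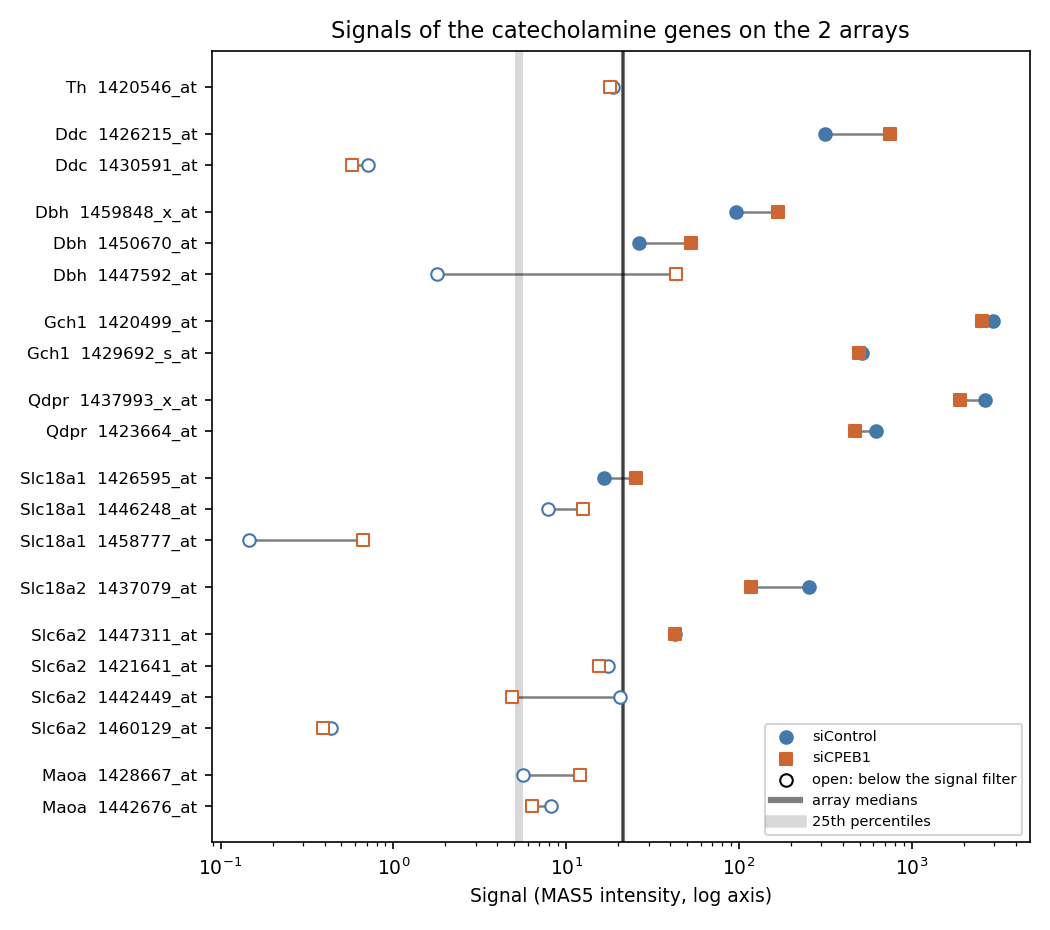
Signal of each of the 20 probe sets of the catecholamine genes in siControl (circles) and siCPEB1 (squares) on a log axis, with open symbols for probe sets below the filter on signal, a dark line at the array medians and a pale line at the 25th percentiles. The squares of the bright Ddc probe set 1426215_at and of all 3 Dbh probe sets lie to the right of the circles, that of Slc18a2 lies to the left, and Th and both Maoa probe sets lie left of the medians.

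Among the enzymes of synthesis, Th (1420546_at, its only probe set) went from 18.6 in siControl to 17.9 in siCPEB1, a log2 ratio of -0.05. Both signals were below the median of their array, at percentiles 48.0 and 46.8, so the defining enzyme of the pathway did not stand out from the dim probe sets on either array. Ddc (1426215_at) went from 313 to 746, a log2 ratio of 1.25. It reached percentile 83.7 in siControl and 92.2 in siCPEB1, well above the dim range on both arrays. Of the 6034 probe sets with a mean signal (the geometric mean of the arrays) over 400, 3.23% were past 2-fold in either direction, and probe sets of the same gene in this range differed with a pooled SD of 0.16. The other Ddc probe set, 1430591_at, had signals of 0.714 and 0.576, among the lowest on the arrays, and gives no information on the gene.

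Dbh, the noradrenaline-forming enzyme, had 3 probe sets, all with a log2 ratio above 0. The representing one, 1450670_at, went from 26.2 to 53.1, a log2 ratio of 1.02. The brightest, 1459848_x_at, of a probe set type that can also bind other transcripts, went from 96.3 to 169 and was 1.76-fold higher (log2 ratio 0.81). The dimmest, 1447592_at, went from 1.79 to 42.9, and it was 2.05-fold higher if the dim siControl signal is replaced by the array median. This last fold is set by the median put in for the siControl signal, and 1447592_at did not pass the filter. It therefore gives no measured agreement with the other Dbh probe sets. Of 7480 probe sets with a mean signal of 25 to 100, 9.68% were past 2-fold, and the pooled SD within genes was 0.42. With the arrays scaled to the same median the log2 ratio of Dbh was 0.98, below the limit of 2-fold.

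The enzymes of the cofactor were bright on both arrays and stayed within 2-fold. Gch1 encodes GTP cyclohydrolase, the entry of tetrahydrobiopterin synthesis. It went from 2935 to 2540.4 at 1420499_at, a log2 ratio of -0.21, and from 518 to 496 at 1429692_s_at, a log2 ratio of -0.06. Qdpr encodes dihydropteridine reductase, which regenerates the cofactor after each hydroxylation. It went from 621 to 469 at 1423664_at, which represents it, a log2 ratio of -0.40, and from 2656 to 1905 at 1437993_x_at, a log2 ratio of -0.48. Both Qdpr values are about the size of the overall spread of 0.37 and larger than the 0.16 of bright probe sets, whereas only the first of the Gch1 values exceeds 0.16 in size.

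The vesicular transporters had ratios of opposite sign. Slc18a2, which encodes VMAT2, the form of neurons, went from 254 to 117 at its only probe set, 1437079_at, a log2 ratio of -1.11. Both signals were above the median of their array, at percentiles 81.2 and 71.2. Among the 7678 probe sets with a mean signal of 100 to 400, 5.97% were past 2-fold, with a pooled SD within genes of 0.26. Slc18a1, which encodes VMAT1, the form of endocrine cells, went from 16.6 to 25.4 at its brightest probe set, 1426595_at, a log2 ratio of 0.61. This probe set passed the filter only through its siCPEB1 signal. The other Slc18a1 probe sets went from 7.83 to 12.4 (1446248_at) and from 0.146 to 0.670 (1458777_at), both below the medians. The brightest was 1.21-fold higher if its siControl signal is replaced by the array median. The others were too dim to give a ratio, so they give no measured agreement with it.

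**Figure D2:**
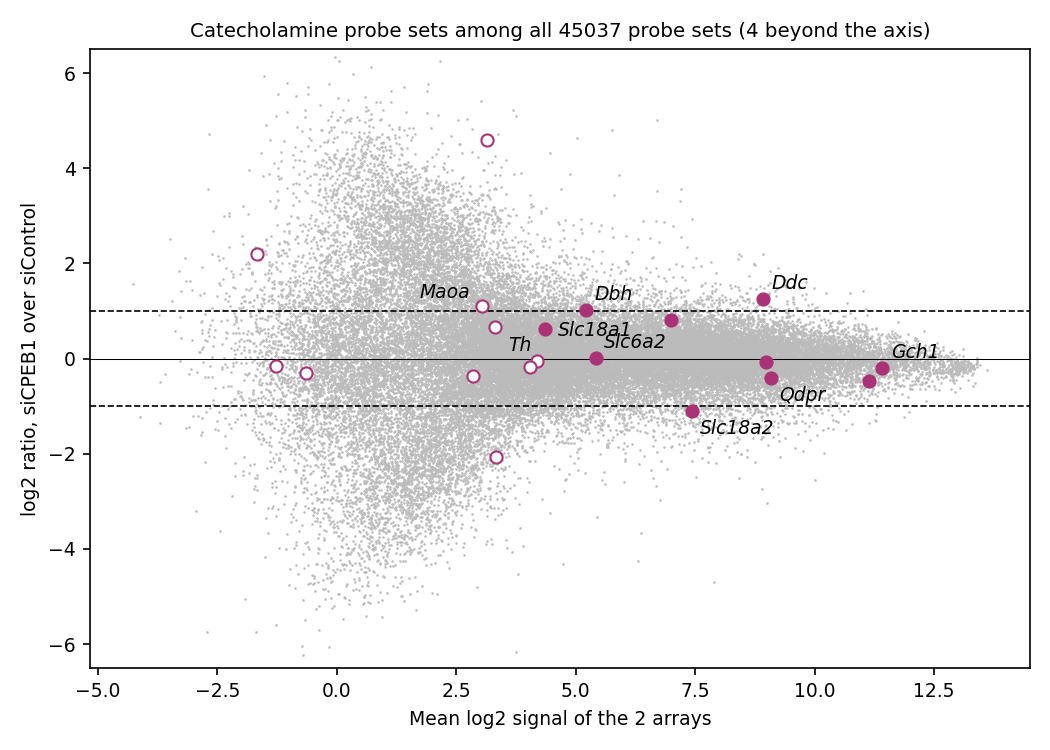
Log2 ratio of siCPEB1 over siControl (y axis) against the mean log2 signal of the arrays (x axis) for all 45037 probe sets (grey, 4 beyond the axis), with the 20 catecholamine probe sets in purple, open below the filter on signal, gene names at the probe set that represents each gene, and dashed lines at 2-fold. Ddc, at 1.25, and Slc18a2, at -1.11, lie beyond the dashed lines, as do 3.23% and 5.97% of the probe sets in their signal ranges. The open circles past 2-fold lie at the dim end.

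The noradrenaline transporter gene Slc6a2 had 4 probe sets, of which 1 passed the filter. That probe set, 1447311_at, had signals of 42.5 and 42.9, a log2 ratio of 0.01. The others went from 17.5 to 15.6 (1421641_at), from 20.4 to 4.89 (1442449_at) and from 0.435 to 0.392 (1460129_at). The ratio of 1442449_at was past 2-fold, but its signals were below the array medians on both arrays and none of the other Slc6a2 probe sets showed it.

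Maoa, which deaminates noradrenaline and serotonin, was below the medians at both probe sets. They went from 5.63 to 12.0 (1428667_at) and from 8.18 to 6.38 (1442676_at), with log2 ratios of 1.10 and -0.36. The probe sets disagreed in direction, and neither passed the filter. Altogether 4 of the 10 probe sets below the filter were past 2-fold, 3 higher (of Dbh, Slc18a1 and Maoa) and 1 lower (of Slc6a2), and of all 23845 probe sets with a mean signal under 25, 43.4% were.

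The wider pathway was described with a list of 55 other genes in 7 roles, of which 39 were measured, 27 passed the filter and 16 were not analysed here. Of the 27 genes, 7 were higher by more than 2-fold and 1 was lower, against the 4.99% and 3.46% of all genes, and the median log2 ratio was 0.00 (0.05 over all 11562 genes that passed). With the array median required on both arrays, 23 genes remained in the count, of which 4 were higher and 1 was lower. The 7 higher genes were 4 transcription factors, 2 receptors and Tph1. Of them Tfap2b, Adra1b and Drd4 passed the filter only through their siCPEB1 signal. The list was chosen with earlier results of these data known, so its counts are a description and not a test.

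**Figure D3:**
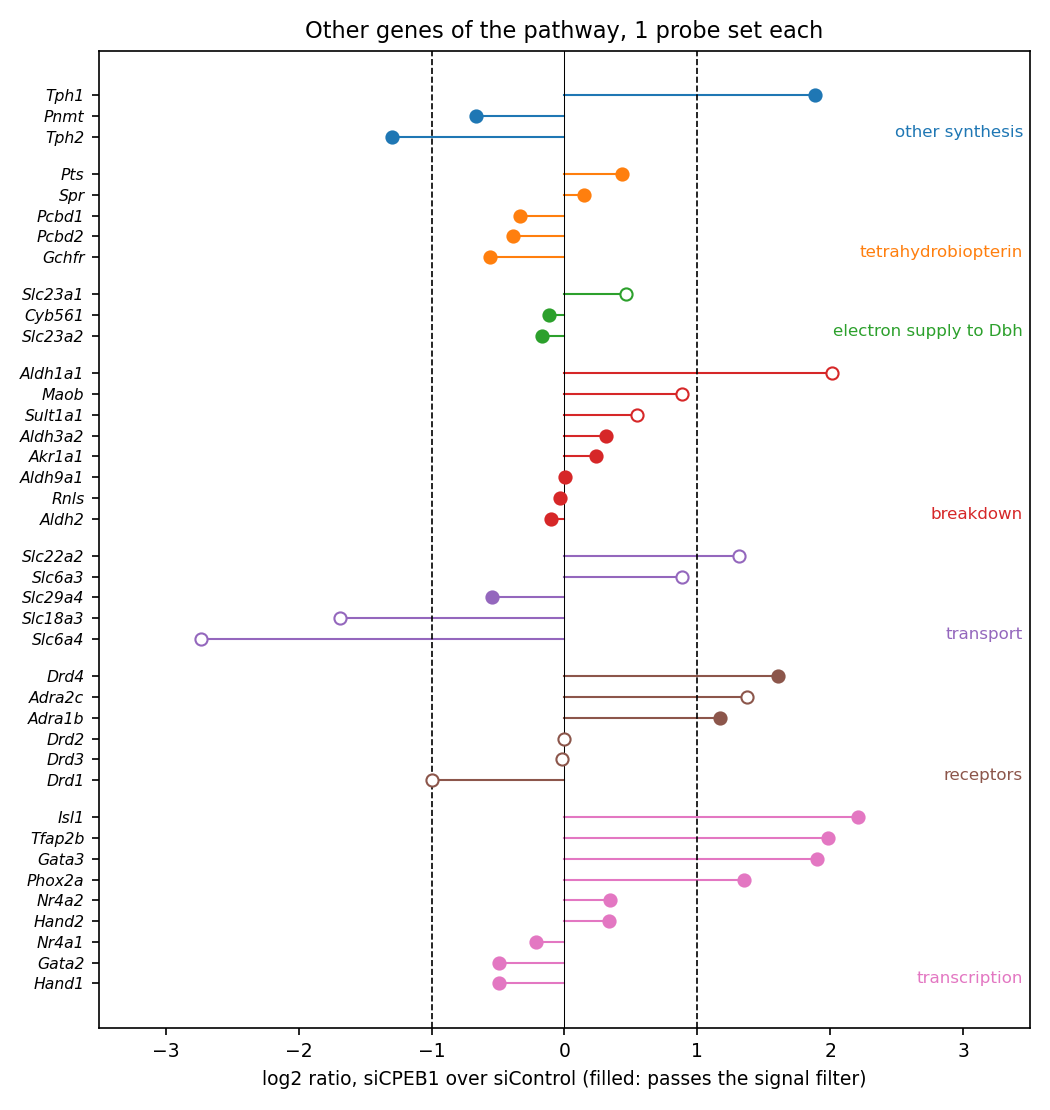
Log2 ratio of siCPEB1 over siControl for the 39 measured genes of the wider list, 1 probe set each, grouped by role, with filled circles for genes that passed the filter on signal and dashed lines at 2-fold. Isl1, Tfap2b, Gata3 and Phox2a lie beyond 1, all 5 genes of tetrahydrobiopterin and all filled genes of breakdown lie between the dashed lines, and Tph1 and Tph2 lie on opposite sides.

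The wider list held 9 measured transcription factors, all of which passed the filter, with log2 ratios from -0.50 to 2.21. At the representing probe sets 4 were higher and none was lower, against the 4.99% and 3.46% of all genes. With the array median required on both arrays, 3 of 7 were higher. Tfap2b passed the filter only through its siCPEB1 signal. Phox2a, a homeodomain factor that activates Dbh, went from 565 to 1443 and was 2.55-fold higher. Gata3, a zinc finger factor of sympathetic neurons, went from 46.0 to 172 and was 3.73-fold higher, and Isl1, a LIM homeodomain factor, went from 224 to 1036 and was 4.62-fold higher. Tfap2b, an AP-2 factor of the neural crest, went from 14.2 to 56.2 and was 2.68-fold higher with the same replacement of the dim signal, while its other probe set had a log2 ratio of 0.92. Hand2, a basic helix-loop-helix factor, went from 3191 to 4033 at its brightest probe set, a log2 ratio of 0.34, and had log2 ratios of 0.83 and 0.76 at the others. Of the other factors, named after their values were seen, Gata2, Nr4a1 and Hand1 had log2 ratios of -0.49, -0.21 and -0.50, and Nr4a2 had 0.35. A further Hand1 probe set that passed was lower, from 28.3 to 7.68, which is 1.31-fold lower after the replacement of the dim signal. Dbh was past 2-fold with the signals as deposited, but it fell below 2-fold with every other scaling tried. With 1 array per condition, every gene called higher is higher in siCPEB1. A direction shared with the 4 higher factors therefore carries no information on Dbh. Th, read from a single dim probe set, was below the median on both arrays. Whether any of these factors acted on Dbh or Th in these cells was not tested.

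Among the other aromatic amino acid hydroxylases, which use the same cofactor to make serotonin, Tph1 went from 27.7 to 102 and was 3.69-fold higher, and Tph2 went from 180 to 73.2 and was 2.46-fold lower. The genes of the 2 tryptophan hydroxylases thus moved in opposite directions.

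None of the 5 measured genes of tetrahydrobiopterin synthesis and recycling was past 2-fold, with log2 ratios from -0.56 to 0.43. The dehydratase genes Pcbd1 and Pcbd2, which act before Qdpr in recycling, had log2 ratios of -0.34 and -0.39, close to the -0.40 of Qdpr. Neither of the passing genes that supply electrons to Dbh was past 2-fold, and the vesicle cytochrome Cyb561 and the ascorbate transporter Slc23a2 had log2 ratios of -0.11 and -0.17.

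None of the 5 passing genes of breakdown was past 2-fold, with log2 ratios from -0.10 to 0.32. The aldehyde dehydrogenase Aldh9a1 had signals of 2301 and 2304 and the aldehyde reductase Akr1a1 went from 4963 to 5844, a log2 ratio of 0.24. Of the other transporters 1 of 5 passed, Slc29a4, a plasma membrane monoamine transporter, with a log2 ratio of -0.54, and the dopamine transporter gene Slc6a3 went from 5.18 to 9.57, both below the medians. Of 6 measured receptors 2 passed, both only through their siCPEB1 signal. Adra1b, an alpha-1 adrenergic receptor, went from 18.1 to 40.8, which is 1.94-fold after the replacement of the dim signal, and the dopamine receptor Drd4 went from 7.16 to 21.8, which gives 1.04-fold in the same way.

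The signals of marker lists of several cell types were also described. The lists were chosen with earlier results of these data known. A count of markers that changed between the arrays cannot check the identity of the cell line. Of 8 sympathetic markers, a list that shares Dbh, Th and the transcription factors with the genes above, 7 were measured and 6 passed, of which 5 were higher and none was lower, against the 4.99% and 3.46% of all genes. Dbh is among the 5 and was below 2-fold with the 4 other scalings and with 16 added. The summed signal of the 7 was 4238 in siControl and 7490 in siCPEB1, and Hand2 was the one that passed within 2-fold. Besides Dbh, Phox2a, Gata3 and Isl1 the higher one was Chrna3, a nicotinic receptor subunit of ganglia, which went from 166 to 736. Th, a defining marker, was below the array median on both arrays.

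Markers of other cells moved beside them in places. The summed signal of 6 fibroblast markers was 94.0 in siControl and 389 in siCPEB1, to which Col1a2, a collagen chain, contributed 42.3 and 309, while Col1a1, Col3a1, Dcn and Lum were below the medians on both arrays. The sums were 59.2 and 94.8 for 4 glial markers, 29.3 and 43.5 for 5 haematopoietic markers, 67.2 and 107 for 4 endothelial markers and 112 and 118 for 4 cholinergic markers. In each of these lists 1 gene passed the filter, and Tyrobp, which went from 9.62 to 22.8 and passed only through its siCPEB1 signal, was past 2-fold, or 1.09-fold higher after the replacement of the dim signal. Both samples were cultures of the Neuro2a line, so these signals do not show that such other cells were present. What the changes of these markers reflect was not tested.

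The choice of scaling left the ratios of Ddc and Slc18a2 past 2-fold. With 4 other scalings and with 16 added to both signals, the log2 ratio of Ddc ranged from 1.21 to 1.26 and that of Slc18a2 from -1.15 to -1.02. That of Dbh ranged from 0.71 to 0.98 and so fell below 2-fold under each of them, still above 0. Averaging all probe sets of a gene, the dim ones included, gave 0.47 for Ddc and 2.14 for Dbh, both moved by a dim probe set.

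**Figure D4:**
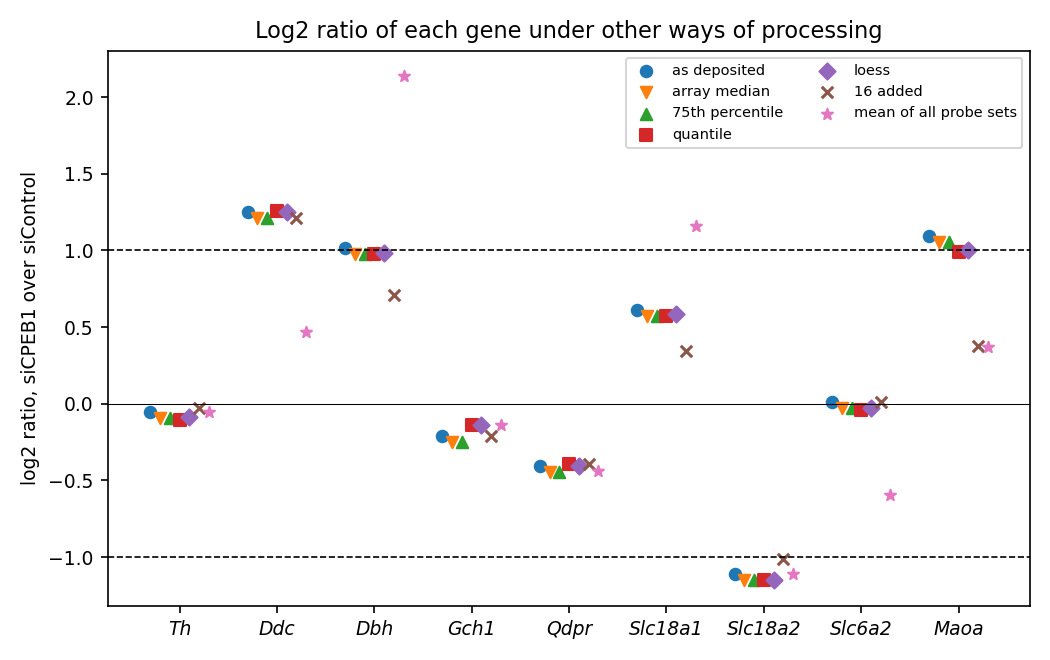
Log2 ratio (siCPEB1 over siControl) of the 9 genes with the signals as deposited, with 4 other scalings of the arrays, with 16 added to both signals and with the mean over every probe set of a gene (stars), and dashed lines at 2-fold. Scaling moves no point far, Dbh lies at or just under the upper line with the deposited signals and the 4 scalings, the stars of Ddc, Dbh, Slc18a1 and Slc6a2 stand apart from the rest, and the star of Maoa lies at 0.37 beside its value with 16 added.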

How the data were processed

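RNA from siControl- and siCPEB1-transfected Neuro2a cells was measured on 1 array each. The deposited intensity of each probe set is a linear signal that the authors computed with MAS5 in Affymetrix Expression Console (versions and scaling target not given in the sources used here). Log2 ratios (siCPEB1 over siControl) were computed from the signals as deposited, with no pseudocount, for 45037 probe sets, after 64 control probe sets were left out. Called higher or lower means past 2-fold.

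The platform annotation gave the symbols, which were brought to current RefSeq names by gene identifier. Of the probe sets, 34945 had 1 symbol, 932 had several and 9160 had none listed. A gene was represented by a passing probe set without an x_at or s_at suffix where there was one, otherwise by another passing one, and of these by the brightest. Named from the wider list were all passing genes past 2-fold and the 2 brightest in each role. The replacement of dim signals by the array median, the motifs and the markers named were chosen after the values were seen. The members and lists were chosen with earlier results of these data known. Alternatives were 4 other scalings, 16 added to both signals, other filters and other choices of probe set. The pooled SD rests on 14955 probe sets of 5535 genes with several. No depth applies to arrays, and their number limits the precision. The steps were tested on simulated data whose changes were well past 2-fold and whose noise was below the pooled SD. How well they call changes near 2-fold was not tested. Python 3.11.15, numpy 2.4.6, pandas 2.3.3, statsmodels 0.14.6 and matplotlib 3.10.9 were used.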

Additional observations from a re-analysis of the deposited data

How the results depend on the processing

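The counts depended on the treatment of dim signals more than on scaling. Of probe sets past 2-fold on the whole array, 1067 were higher and 960 lower; with 16 added to both signals these were 450 and 460, with no filter 6405 and 5326, and with the array median required on both arrays 553 and 597. Of the catecholamine probe sets, 2 were higher, and 1 was after division by the array median or the 75th percentile, quantile normalization, loess (span 0.3) or 16 added, because Dbh fell below 2-fold. With no filter 5 were higher and 2 lower, by construction through dim probe sets. In the wider list 4 genes were higher with the median required on both arrays, and 3 were lower with no filter and 2 with the mean over every probe set of a gene, where the count as reported was 1. The medians over the catecholamine genes and over the wider list moved by less than the spread of 0.37 under every alternative, the former ranging from -0.14 to 0.01. The mean of all probe sets moved the log2 ratio of Slc18a1 to 1.16, of Slc6a2 to -0.59 and of Maoa to 0.37, and 16 added gave 0.37 for Maoa. No paired analysis was possible because each condition has 1 array, and for the same reason no replicate could be left out. Signals under the array median limit what can be said of Th, Slc18a1 and Maoa.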
